A study of Mus musculus with 9 samples.

Results

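The integrated stress response is represented here by 10 genes that were selected by their symbols as members of the ATF4 and CHOP program. They comprise 5 transcription regulators (Atf4, Atf5, Atf3, Ddit3, which encodes CHOP, and Nupr1) and 5 further targets (Trib3, Chac1, Sesn2, Ppp1r15a and Gdf15). All 10 were found among the 55487 genes of the count table and all 10 were kept among the 21049 genes tested. RNA-seq was performed on explants of the retina of C57BL/6J mice (wild-type, postnatal day 28), with 5 control libraries and 4 libraries from explants exposed to 2-deoxy-D-glucose (2-DG), a glucose analog that blocks glycolysis. Explants of both groups were kept for 48 h in Neurobasal-A medium with 5 mM glucose and B27 and N2 supplements, the 2-DG group with 20 mM 2-DG in addition. The protocol text then gives 1 h in Krebs' Ringer medium, and whether the retinas used for RNA had that hour is not clear from it. The comparison asked whether blocking glycolysis altered transcripts of the integrated stress response. The explants were neural retina from which sclera and retinal pigment epithelium had been removed. How many animals contributed to a library is not stated in the sources used here.

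In the integrated stress response, kinases that sense amino acid shortage, unfolded proteins in the endoplasmic reticulum (ER), double-stranded RNA or heme shortage phosphorylate the translation initiation factor eIF2. Bulk protein synthesis then falls while translation of a few messages with upstream reading frames, Atf4 among them, rises, and ATF4 induces genes for amino acid supply, redox balance and, with CHOP, cell death. Because ATF4 and ATF5 are controlled mainly through translation, the RNA level of these genes is not a measure of their protein.

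ATF4 pairs with C/EBP family proteins at a composite element, searched for here as TGATGNAA, and CREB/ATF proteins bind the palindrome TGACGTCA. Both motifs were searched on both strands of the RefSeq windows that run from 250 bases before to 50 bases after each annotated start (GRCm38.p6). The search covered all 32851 windows in the table, and every one of the 10 genes had a window (12 windows, with a pair each for Atf5 and Gdf15). TGATGNAA was present in 3.97% of all windows and in those of 4 of the 10 genes, Atf3, Nupr1, Trib3 and Chac1. TGACGTCA was present in 1.79% of all windows and in that of Ppp1r15a only among the 10. A match is a description of the letters and not evidence of binding. The 5 windows that hold a match are shown because they place the motifs relative to the starts of genes whose levels are given next. Each is written 5′ to 3′ on the strand of its gene with the matching 8 bases in capitals. In the first 4 the capitals are the reverse complement of the searched motif.
Atf3 (chr1:191183284-191183583, minus strand): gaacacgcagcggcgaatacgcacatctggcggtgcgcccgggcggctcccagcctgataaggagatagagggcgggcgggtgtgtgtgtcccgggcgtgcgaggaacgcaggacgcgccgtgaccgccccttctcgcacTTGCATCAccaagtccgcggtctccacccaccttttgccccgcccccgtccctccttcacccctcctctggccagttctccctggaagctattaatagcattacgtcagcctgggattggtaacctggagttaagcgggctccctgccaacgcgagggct
Nupr1 (chr7:126625421-126625720, minus strand): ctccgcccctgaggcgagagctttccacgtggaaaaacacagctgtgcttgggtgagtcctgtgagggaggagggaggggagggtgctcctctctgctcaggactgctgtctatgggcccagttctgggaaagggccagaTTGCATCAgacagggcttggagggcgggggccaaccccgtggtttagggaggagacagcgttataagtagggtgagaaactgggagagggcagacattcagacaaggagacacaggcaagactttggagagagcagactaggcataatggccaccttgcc
Trib3 (chr2:152344011-152344310, minus strand): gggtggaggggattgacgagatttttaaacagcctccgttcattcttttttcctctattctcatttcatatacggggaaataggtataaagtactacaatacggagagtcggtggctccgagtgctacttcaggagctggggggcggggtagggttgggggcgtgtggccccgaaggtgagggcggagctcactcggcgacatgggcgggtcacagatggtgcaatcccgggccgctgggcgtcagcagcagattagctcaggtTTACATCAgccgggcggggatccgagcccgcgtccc
Chac1 (chr2:119350992-119351291, plus strand): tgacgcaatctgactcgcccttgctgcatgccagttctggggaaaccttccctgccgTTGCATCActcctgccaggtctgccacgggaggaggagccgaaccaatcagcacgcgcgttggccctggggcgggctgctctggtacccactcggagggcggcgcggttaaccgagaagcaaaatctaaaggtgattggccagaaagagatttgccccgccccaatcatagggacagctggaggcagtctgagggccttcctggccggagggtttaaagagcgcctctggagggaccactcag
Ppp1r15a (chr7:45526219-45526518, minus strand): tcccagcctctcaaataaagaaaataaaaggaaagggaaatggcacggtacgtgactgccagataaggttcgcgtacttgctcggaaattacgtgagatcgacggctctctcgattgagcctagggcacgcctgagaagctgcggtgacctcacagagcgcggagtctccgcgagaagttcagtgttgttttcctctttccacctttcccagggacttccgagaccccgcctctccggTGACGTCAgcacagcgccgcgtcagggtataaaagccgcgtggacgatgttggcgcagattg
Counted from the annotated start, the match lay at −110 to −103 in both Atf3 and Nupr1, at −193 to −186 in Chac1, at 15 to 22 after the start in Trib3, and at −12 to −5 in Ppp1r15a. The Atf3 window lies at the start of the transcript Atf3-201 and not at the start of Atf3-203, which begins farther upstream. For Nupr1 and Trib3 the RefSeq start differs from the GENCODE start of the main transcript. The Nupr1 match lies downstream of the start of Nupr1-201 (base 126625676), and the Trib3 match lies upstream of the start of Trib3-201 (base 152344032).

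Libraries held between 11317734 and 51802249 estimated counts. A floor of 3 counts corresponded to between 0.0556 and 0.255 CPM (counts scaled to library size with TMM factors), and every one of the 10 genes had at least 60 counts in every library. The libraries of a group differed widely in composition. Rod photoreceptor markers (8 of 8 tested) summed to 42180 CPM in control replicate 2, to between 4862 and 14760 CPM in the other control libraries and between 7360 and 16020 CPM in 2-DG libraries, so rod transcripts, the main cells of the tissue, were present in all 9. Mitochondrially encoded transcripts took between 3.63% and 10.7% of counts in control and between 3.40% and 13.6% in 2-DG libraries. Markers of the retinal pigment epithelium, which the dissection should remove, summed to 169.8 CPM in 2-DG replicate 3, where all 7 had counts, and to between 1.36 and 19.9 CPM in the other libraries, 4 of which had Rpe65 at 0.

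None of the 10 genes passed the test for a difference between 2-DG and control. In edgeR's quasi-likelihood test 0 of the 10 had an adjusted p-value under 0.05, against 0.0% of all 21049 genes tested (0 called). At an unadjusted p under 0.05 there were likewise 0 of the 10, against 7.25% of all genes, and DESeq2 gave 1 at that unadjusted level (Atf3), against 7.14% of all genes. After adjustment DESeq2 called 0 of the 10 and 257 of all genes (1.02% of those with an adjusted p). Adjusted p-values of the 10 genes ranged from 0.697 for Nupr1 to 0.96 for Atf4. The levels of 8 genes were higher in 2-DG by the fitted fold change and those of Atf3 and Ppp1r15a lower, with a median log2 fold change of 0.29 against −0.01 over all genes tested, of which 49.2% lay above 0. Groups overlapped for each of the 10, where 2.93% of all genes tested had groups that did not. In these bulk libraries, fewer cells of a type and less RNA per cell cannot be told apart.

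The 10 genes varied widely within each group. Control replicates 4 and 5 had the highest control values for all 10 genes, 2-DG replicate 4 had the highest 2-DG value for 8, and 2-DG replicate 3, the library with the pigment epithelium markers, had the lowest 2-DG value for all 10. For 8 of the 10 genes the 3 highest libraries of the series were control replicates 4 and 5 and 2-DG replicate 4, an order found in 8.80% of all genes tested. The exceptions were Ddit3 and Nupr1. Summed over the 10 genes, control replicates 1 to 5 held 1407, 859, 1640, 2822 and 3497 CPM and 2-DG replicates 1 to 4 held 1479, 1564, 859 and 3559 CPM. The sum of 5 endothelial and pericyte markers (5 of 5 tested, none at 0 in any library) was also highest in these 3 libraries, at 998 and 1890.0 CPM in control replicates 4 and 5 and 2452 CPM in 2-DG replicate 4, against 228 to 834 CPM in the others. Of the 5, Cldn5 and Cdh5 had this order, whereas the pericyte genes Pdgfrb and Rgs5 were lower in 2-DG replicate 4 (53.7 and 68.4 CPM) than in 2-DG replicate 3 (83.0 and 91.1 CPM), and Pecam1 was lower in control replicate 4 (165 CPM) than in 2-DG replicate 3 (282 CPM). Mitochondrial percent was 6.68% and 9.97% in control replicates 4 and 5 and 13.6% in 2-DG replicate 4, and 10.7% in control replicate 2, which had the lowest control value for 8 of the 10 genes. Control replicate 2 also had the highest sums of rod markers of all libraries and of cone markers among the controls (511 CPM), and 2-DG replicate 3 had the highest cone sum (634 CPM). The part of these measures in the levels of the 10 genes was not tested.

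**Figure D1:**
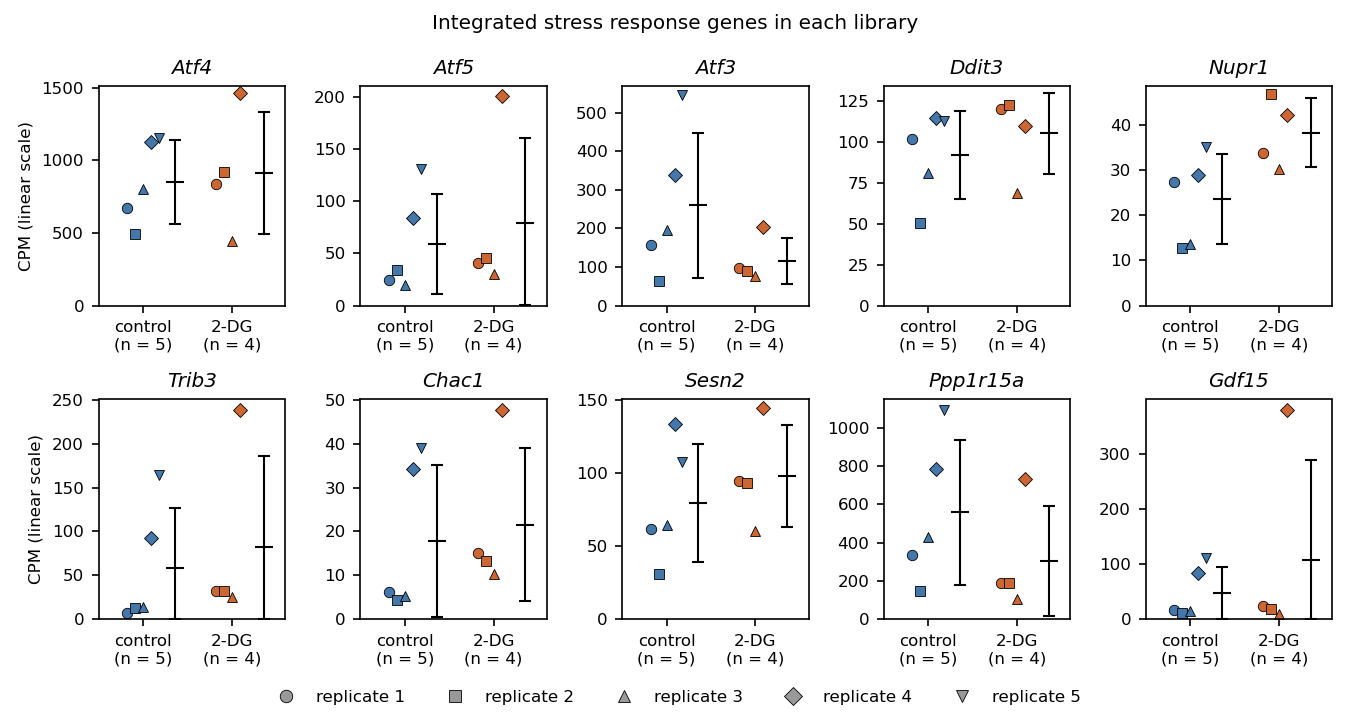
CPM (linear scale, y axis) of the 10 genes in each of the 5 control and 4 2-DG libraries (x axis), with a symbol for each replicate number and the mean ± SD beside each group (lower bars end at 0). Control replicates 4 and 5 are the upper control points in every panel, and 2-DG replicate 4 stands far above the other 2-DG libraries for Gdf15 (379 CPM) and Trib3 (239 CPM).

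Atf4 encodes the central transcription factor of the response (ENSMUSG00000042406, chr15:80255184-80257541, plus strand, GRCm38). It stood at 668, 492, 804, 1128 and 1156 CPM in control replicates 1 to 5 and at 837, 917, 442 and 1460 CPM in 2-DG replicates 1 to 4. The highest and the lowest libraries were both 2-DG libraries, so the 2-DG range enclosed that of control. Means were 849 ± 289 CPM in control (SD, n = 5) and 914 ± 419 CPM in 2-DG (SD, n = 4), and the log2 fold change was 0.11 (SE 0.38, edgeR adjusted p = 0.96). Without 2-DG replicate 4 it was −0.21 (SE 0.37), with an edgeR adjusted p of 0.828.

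Atf5 encodes a related factor that is also translated through upstream reading frames and is linked to the mitochondrial stress response (ENSMUSG00000038539, chr7:44812256-44816658, minus strand). Its control values were 24.8, 34.5, 19.8, 84.3 and 131 CPM and its 2-DG values 41.2, 45.2, 30.4 and 201 CPM, in replicate order. The 2-DG values of replicates 1 to 3 lay between those of control replicates 1 to 3 and those of control replicates 4 and 5, apart from replicate 3, which was below control replicate 2. The fitted log2 fold change was 0.43 (SE 0.69, edgeR adjusted p = 0.899) with all libraries and −0.60 (SE 0.60, edgeR adjusted p = 0.688) without 2-DG replicate 4. Atf5 overlaps Nup62 and Il4i1 on the opposite strand, and whether the quantification used strand is not given in the sources used here.

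Atf3 encodes a stress-inducible factor that is also an immediate-early gene (ENSMUSG00000026628, chr1:191170296-191218039, minus strand). Control replicates 1 to 5 stood at 158, 63.0, 195, 339 and 545 CPM and 2-DG replicates 1 to 4 at 96.5, 88.3, 76.0 and 204 CPM. All 4 2-DG libraries lay below the control mean of 259.9 ± 188 CPM (SD, n = 5), but control replicate 2 lay below all of them. The log2 fold change was −1.16 (SE 0.56), with an unadjusted p of 0.0635 and an adjusted p of 0.709 in edgeR. Without 2-DG replicate 4 it was −1.58 (SE 0.59), with an unadjusted p of 0.0241 and an adjusted p of 0.33 in edgeR. Without control replicate 5 the difference was −0.71, with an unadjusted p of 0.181 in edgeR.

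Ddit3 encodes CHOP, the factor that links prolonged ER stress to cell death (ENSMUSG00000025408, chr10:127290774-127296288, plus strand). The control libraries gave 102, 50.7, 81.2, 115 and 113 CPM and the 2-DG libraries 120.2, 123, 69.2 and 110.2 CPM, in replicate order. Apart from control replicate 2 and 2-DG replicate 3, every library lay between 81.2 and 123 CPM, the narrowest spread of the 10 genes at 2.42-fold from lowest to highest. A log2 fold change of 0.19 (SE 0.28, edgeR adjusted p = 0.889) was fitted, or 0.17 (SE 0.31, edgeR adjusted p = 0.836) with 2-DG replicate 4 left out. The annotation holds a further Ddit3 entry that was at 0 in every library, and the gene overlaps Mars and Gm4189 on the opposite strand.

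Nupr1 encodes a small stress-induced chromatin protein that acts with ATF4 (ENSMUSG00000030717, chr7:126623249-126630861, minus strand). Its levels were 27.3, 12.8, 13.7, 28.9 and 35.2 CPM in control replicates 1 to 5 and 33.7, 46.9, 30.3 and 42.1 CPM in 2-DG replicates 1 to 4. All 4 2-DG libraries lay above the control mean of 23.6 ± 9.88 CPM (SD, n = 5), and control replicate 5 overlapped with them. The log2 fold change was 0.70 (SE 0.33), with an unadjusted p of 0.0578 and an adjusted p of 0.697 in edgeR. It was 0.65 (SE 0.36, edgeR adjusted p = 0.469) without 2-DG replicate 4, and between 0.54 and 0.88 when any single library was left out.

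Trib3 encodes a pseudokinase that ATF4 and CHOP induce and that restrains AKT and ATF4 itself (ENSMUSG00000032715, chr2:152337422-152344032, minus strand). Control values spanned 23.1-fold, at 7.11, 13.1, 14.0, 93.1 and 164 CPM in replicates 1 to 5, and 2-DG values were 32.2, 32.4, 25.6 and 239 CPM in replicates 1 to 4. The 2-DG replicates 1 to 3 lay above control replicates 1 to 3 and below control replicates 4 and 5, and 2-DG replicate 4 lay above every control library. Between the groups Trib3 differed by a log2 fold change of 0.50 (SE 0.99, edgeR adjusted p = 0.922) with 2-DG replicate 4 and −0.96 (SE 0.95, edgeR adjusted p = 0.687) without it.

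Chac1 encodes a glutathione-degrading enzyme (ENSMUSG00000027313, chr2:119351229-119354381, plus strand). Its levels were 6.11, 4.30, 5.27, 34.3 and 39.1 CPM in control and 15.1, 13.3, 10.2 and 47.7 CPM in 2-DG libraries, in replicate order. The libraries stood in the same blocks as for Trib3, with 2-DG replicates 1 to 3 between the lower 3 and the upper 2 control libraries. For Chac1 the log2 fold change was 0.27 (SE 0.75, edgeR adjusted p = 0.946) with all libraries and −0.48 (SE 0.76, edgeR adjusted p = 0.814) without 2-DG replicate 4.

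Sesn2 encodes sestrin 2, a leucine-sensing inhibitor of mTORC1 that p53 also induces (ENSMUSG00000028893, chr4:132492032-132510501, minus strand). Levels were 61.3, 30.6, 64.3, 133 and 108 CPM in control replicates 1 to 5 and 94.1, 92.7, 60.3 and 144 CPM in 2-DG replicates 1 to 4. The groups overlapped over most of their range, and 3 of 4 2-DG libraries lay above the control mean of 79.4 ± 40.6 CPM (SD, n = 5). Its log2 fold change was 0.30 (SE 0.40, edgeR adjusted p = 0.877) with all libraries and 0.05 (SE 0.42, edgeR adjusted p = 0.966) without 2-DG replicate 4.

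Ppp1r15a encodes GADD34, the phosphatase subunit that removes the phosphate from eIF2 and so ends the response (ENSMUSG00000040435, chr7:45522916-45526268, minus strand). Control replicates 1 to 5 gave 337, 147, 429, 783 and 1095 CPM, and 2-DG replicates 1 to 4 gave 186, 186, 106 and 732 CPM. In 2-DG replicates 1 to 3 the levels were below those of control replicates 1, 3, 4 and 5, while 2-DG replicate 4 lay among the upper control libraries. The log2 fold change was −0.88 (SE 0.67), with an unadjusted p of 0.214 and an adjusted p of 0.802 in edgeR. Without 2-DG replicate 4 it was −1.81 (SE 0.60), with an unadjusted p of 0.0135 and an adjusted p of 0.308 in edgeR. Without control replicate 5 it was −0.49, with an unadjusted p of 0.466 in edgeR.

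Gdf15 encodes a secreted stress cytokine (ENSMUSG00000038508, chr8:70629393-70632456, minus strand). Its control values were 16.3, 10.7, 14.5, 83.8 and 112 CPM and its 2-DG values 23.2, 18.9, 8.86 and 379 CPM, in replicate order. The spread from lowest to highest library was 42.8-fold, the widest of the 10 genes, and both ends of it were 2-DG libraries. The log2 fold change was 1.18 (SE 1.11, edgeR adjusted p = 0.834) with all libraries and −1.49 (SE 0.83, edgeR adjusted p = 0.466) without 2-DG replicate 4.

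Leaving out 2-DG replicate 4 turned the fitted difference of 5 of the 10 genes (Atf4, Atf5, Trib3, Chac1 and Gdf15) from above to below 0. Of the 10, 3 were then higher and 7 lower in 2-DG, with a median log2 fold change of −0.54 against −0.05 over all genes tested, of which 46.5% lay above 0. With any single library left out the median of the 10 lay between −0.54 and 0.60. Without 2-DG replicate 4, unadjusted p-values under 0.05 were found for 2 of the 10, Atf3 and Ppp1r15a, both lower, against 9.49% of all genes lower and 3.38% higher at that level. After adjustment 0 of the 10 passed in edgeR without that library, against 0.00946% of all genes (2 called). A test with library quality weights (limma-voom), which gives libraries far from their group less weight, called the same 2 genes, Atf3 (log2 fold change −1.39, limma adjusted p = 0.0364) and Ppp1r15a (−1.54, limma adjusted p = 0.0373). It called 5.81% of all genes, 4.27% lower in 2-DG. Over the alternatives the adjusted p of both genes ranged up to 1.00, with limma on the deposited CPM. Atf4 also turned below 0 without control replicate 2 (−0.04).

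**Figure D2:**
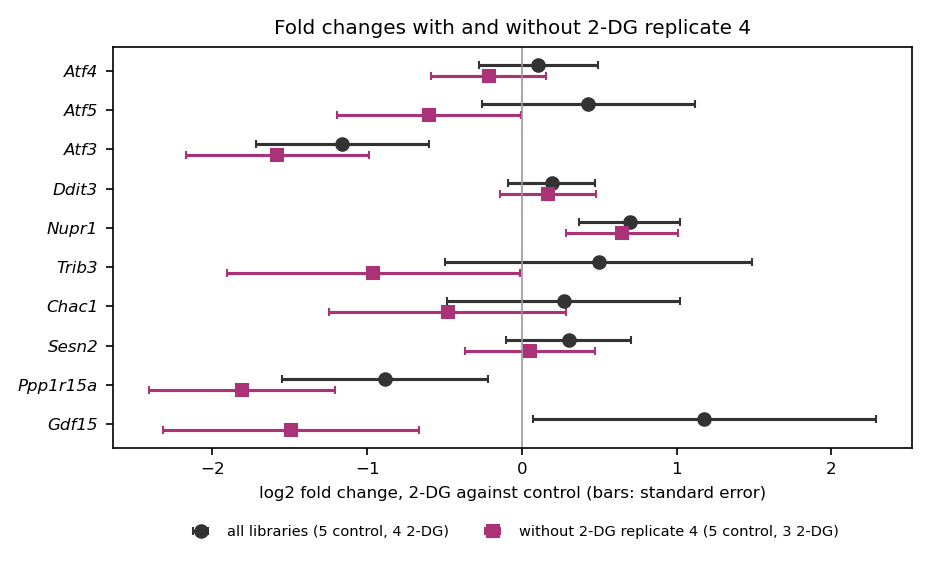
Log2 fold change of 2-DG against control (x axis) for each of the 10 genes with its standard error, with all 9 libraries (circles) and without 2-DG replicate 4 (squares). The squares of Atf4, Atf5, Trib3, Chac1 and Gdf15 lie below 0 and their circles above it, whereas for Ddit3 and Nupr1 both lie above 0 and close together.

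**Figure D3:**
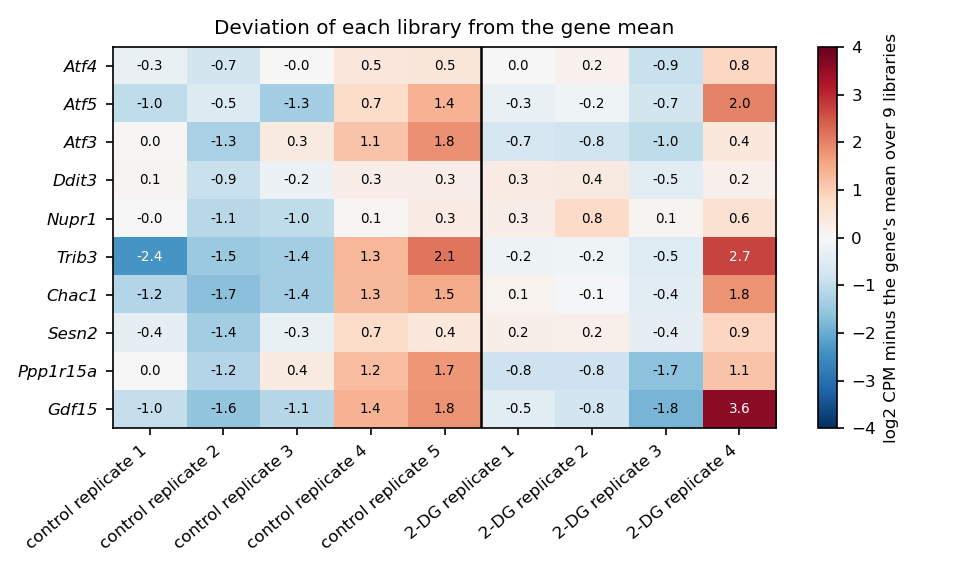
Log2 CPM of each gene (rows) in each library (columns) minus the mean of that gene over the 9 libraries, with the difference printed in each cell. Control replicates 4 and 5 and 2-DG replicate 4 are above the mean for all 10 genes, and control replicate 2 is below it for all 10.

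Levels across the 9 libraries rose and fell together for most of the genes. Pearson's r of log2 CPM over the 45 pairs among the 10 genes ranged from 0.19 to 0.96 with a median of 0.73, and 7 pairs were above 0.9. The same values over all pairs of genes tested were not computed, so whether these are particular to the 10 genes cannot be told. The closest pairs were Trib3 with Chac1 (0.96), Atf3 with Ppp1r15a (0.96) and Atf5 with Trib3 (0.96). The lowest were Nupr1 with Ppp1r15a (0.19) and with Atf3 (0.20). These correlations describe 9 libraries that differed in depth, in cell composition and, between groups, in treatment. The part of each in the correlations was not tested. Over the same 9 libraries, the 5 protein-coding genes closest to Atf4 were Apom, Mettl1, Alyref, Spata5 and Gnl3 (r between 0.97 and 0.98). Among those closest to Ddit3 were Pdap1, Pycr1, Upk1b and Blnk (r between 0.96 and 0.98). Pycr1, an enzyme of proline synthesis, stood at 7.50 CPM in control and 9.15 CPM in 2-DG on average.

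Compared per length, as TPM, a length-scaled abundance computed here from the transcript counts and annotated lengths, Atf4 was the most abundant of the 10 genes in both groups, at 1009 ± 326 TPM in control (SD, n = 5) and 1000 ± 272 TPM in 2-DG (SD, n = 4). Ppp1r15a, Atf3 and Ddit3 followed in control at 501 ± 294, 271 ± 166 and 220.1 ± 72.8 TPM (SD, n = 5), and the steps among these 3 were smaller than the SD of the higher gene. The next group, Gdf15, Atf5, Nupr1, Trib3 and Sesn2, lay between 46.8 and 65.8 TPM on average in control, and their order could not be told from the spread of 22.5 to 62.6 TPM. Chac1 was the lowest of the 10 at 21.1 ± 19.2 TPM in control (SD, n = 5). In 2-DG libraries Ddit3 (244 ± 85.4 TPM) stood second, before Ppp1r15a (223 ± 126 TPM) and Atf3 (112 ± 21.8 TPM, SD, n = 4 for each), and the step between Ddit3 and Ppp1r15a was smaller than the SD of either.

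The 10 genes had 28 annotated transcripts in the transcript table, of which 23 were tested. In edgeR 0 of the 23 had an adjusted p under 0.05 and 0 had an unadjusted p under 0.05, against 0.0% and 3.45% of the 62900 transcripts tested. A single protein-coding transcript carried nearly all counts of Atf4 (Atf4-201, 96.6% to 98.3% per library), Trib3 (Trib3-201, 97.9% to 100%) and Ppp1r15a (Ppp1r15a-201, 93.4% to 96.7%). For Chac1 and Sesn2 only 1 transcript is annotated. Gdf15-202 carried 81.3% to 94.1% and Ddit3-201 carried 88.2% to 95.9% of their gene's counts. Nupr1-201 carried 77.2% to 89.3%.

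Atf5 and Atf3 each had a pair of protein-coding transcripts with counts and with different starts, and their shares varied between libraries. A further protein-coding transcript, Atf5-203, had 0 counts in all 9 libraries. The share of Atf5-201, which begins at the upstream start (chr7, base 44816658) and not at the start of Atf5-202 (base 44815658), was 58.2%, 30.7%, 35.0%, 92.7% and 89.7% in control replicates 1 to 5. In 2-DG replicates 1 to 4 it was 100%, 79.5%, 43.4% and 91.6%. Control replicates 4 and 5 and 2-DG replicate 4, with the highest Atf5 levels, all had 89.7% or more of counts on Atf5-201, whereas 2-DG replicate 1 reached the highest share at 39.0 CPM of that transcript. Atf5-202 varied less in level among the libraries with counts, between 6.48 and 24.5 CPM, and was under the floor of 3 counts in 2-DG replicate 1. Atf3-201 took 87.6%, 64.1%, 51.8%, 97.5% and 99.8% of Atf3 counts in control and 74.7%, 77.7%, 97.2% and 89.9% in 2-DG libraries, in replicate order. Atf3-203, from the distal start (chr1, base 191218039), held between 9.89% and 46.2% in the 6 libraries in which Atf3-201 was under 90%, and was under the floor of 3 counts in control replicate 5. The division of reads between transcripts with shared exons is an estimate, and its error is not part of the deposited counts.

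**Figure D4:**
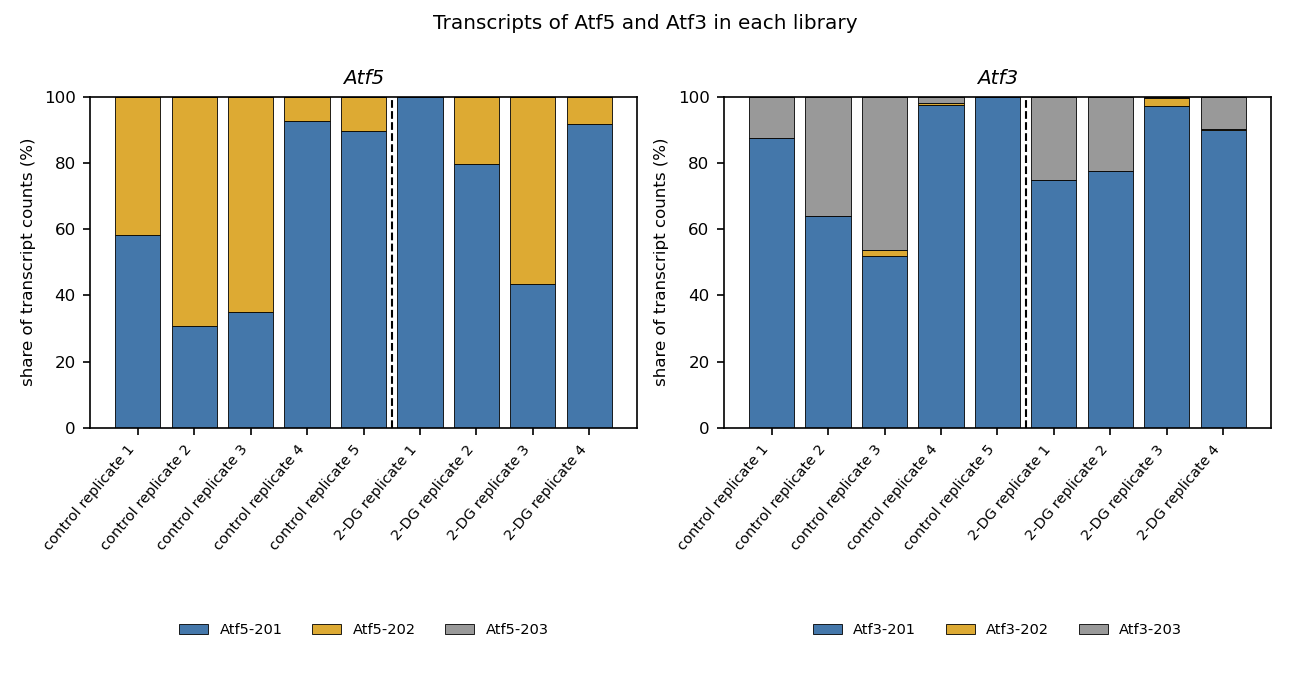
Share of the transcript counts of Atf5 (left) and Atf3 (right) assigned to each annotated transcript (y axis, percent) in each library (x axis), with control libraries left of the dashed line. Atf5-201 holds between 30.7% and 100% and Atf3-201 between 51.8% and 99.8%, of which the 2-DG libraries span 43.4% to 100% and 74.7% to 97.2%.

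The pathway around these genes was described with 10 gene lists, by counts and medians beside all genes tested, and the lists were chosen with earlier results of these libraries known. With all libraries, 0 genes of these lists had an adjusted p under 0.05 in edgeR (0.0% of all genes). Upstream of ATF4, 16 of 19 genes of eIF2, eIF2B, their kinases and phosphatase partners were higher in 2-DG, with a median log2 fold change of 0.23 (13 of 19 and 0.13 without 2-DG replicate 4), and 3 were higher at an unadjusted p under 0.05, against 2.42% of all genes. These included Dnajc3, the inhibitor of eIF2 kinases (log2 fold change 0.91, SE 0.20), and Gcn1, the activator of the amino acid sensor GCN2 (0.56, SE 0.19), both higher in 4 of 4 2-DG libraries than the control mean. Of the leucine zipper partners and coactivators of ATF4 and CHOP, 9 of 15 were higher (median 0.17, against 7 of 15 and −0.09 without 2-DG replicate 4). In that list the C/EBP family member Cebpa was at −1.40 (SE 0.55, edgeR adjusted p = 0.644). For Cebpa control replicate 2, at 2.43 CPM, lay within the 2-DG range of 1.99 to 7.01 CPM. Batf3 was at −0.94 (SE 0.72), with levels of 0.702 ± 0.410 CPM in control (SD, n = 5) and 0.373 ± 0.231 CPM in 2-DG libraries (SD, n = 4).

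Among targets, 13 of 24 other ATF4 and CHOP targets were higher, with a median of 0.01 (9 of 24 and −0.31 without 2-DG replicate 4). Becn1, an autophagy gene, was at 0.47 (SE 0.18). The hormone gene Fgf21 stood at 0.654, 0, 0.763, 1.66 and 2.39 CPM in control and at 0, 0.0933, 0.0371 and 0.515 CPM in 2-DG libraries, in replicate order. All 4 2-DG libraries lay below the control mean, but control replicate 2 was at 0 counts, and 2-DG replicates 1 to 3 were at or under their floors of 3 counts. Its log2 fold change was −2.66 (SE 1.12), with an unadjusted p of 0.0377 and an adjusted p of 0.67 in edgeR, where 4.83% of all genes were lower at an unadjusted p under 0.05. Without 2-DG replicate 4, which leaves only 2-DG libraries at or under their floors, the fold change of Fgf21 was −4.35 (edgeR adjusted p = 0.301). Genes of amino acid synthesis and transport, the best-known ATF4 targets, were higher for 18 of 20 with a median of 0.58 (12 of 20 and 0.22 without 2-DG replicate 4), and 3 were higher at an unadjusted p under 0.05, against 2.42% of all genes. The smallest p-values of the list were those of Gpt2, the mitochondrial alanine aminotransferase, at 1.23 (SE 0.23, edgeR adjusted p = 0.38) and Aldh18a1 of proline synthesis at 0.84 (SE 0.28). Of the aminoacyl-tRNA synthetases and the tRNA exporter listed with them, 14 of 14 were higher, between 0.26 and 0.64, with a median of 0.44 (12 of 14 and 0.23 without 2-DG replicate 4). The exporter Xpot (0.64, SE 0.26) and Eprs1 (0.56, SE 0.23) had the smallest p-values of that list.

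ATF6 and XBP1 carry the other arms of the unfolded protein response, and their list held ER chaperones and folding factors together with the regulators Atf6, Xbp1 and Ern1 and the degradation genes Sel1l, Edem1 and Syvn1. Levels were higher after 2-DG for 17 of 17, with a median of 0.98 (16 of 17 and 1.04 without 2-DG replicate 4), and 12 were higher at an unadjusted p under 0.05, against 2.42% of all genes. The regulators were at 0.21 for Atf6, 0.40 for Xbp1 and 0.13 for Ern1, none of them at that level, and Ern1 was at −0.59 without 2-DG replicate 4. The 17 genes summed to 1683 to 2557 CPM in control and 3758 to 5362 CPM in 2-DG libraries, with no overlap, and 2-DG replicate 4 had the lowest of the 2-DG sums. Pdia4, a disulfide isomerase, was at 1.70 (SE 0.21, edgeR adjusted p = 0.181) and Hyou1, an ER chaperone, at 1.18 (SE 0.19, edgeR adjusted p = 0.3). Without 2-DG replicate 4 edgeR called 2 members of this list, Pdia4 (1.84, adjusted p = 0.0441) and, named after its values were seen, Sdf2l1 (2.84, adjusted p = 0.0441), which were also the 2 calls among all genes in that fit (0.00946%).

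In the remaining lists, mitochondrial stress genes were higher for 7 of 10 (median 0.13, against 4 of 10 and −0.09 without 2-DG replicate 4). Opa1 was at 0.37 (SE 0.30) and Yme1l1 at 0.23 (SE 0.24). Immediate-early genes, to which Atf3 is related by its induction, were higher for 2 of 21 and lower for 19, with a median of −0.82, and 9 were lower at an unadjusted p under 0.05, against 4.83% of all genes. Arc was at −2.92 (SE 0.68) and Egr3 at −2.11 (SE 0.53), each lower in 4 of 4 2-DG libraries than the control mean. Control replicate 2 lay among the 2-DG libraries for both, with Arc at 25.8 CPM against 13.8 to 53.3 CPM and Egr3 at 6.16 CPM against 4.36 to 12.4 CPM. The sums of the list overlapped, at 2013 to 9303 CPM in control and 1809 to 3991 CPM in 2-DG libraries. Heat shock genes were lower for 10 of 12 (median −0.89, and −0.40 without control replicate 5), 5 of them at an unadjusted p under 0.05, with Cryab at −1.59 (SE 0.45) and Hspa1a, which shares reads with Hspa1b, at −3.70 (SE 1.13). Hspa1a stood at 2540 and 6210 CPM in control replicates 4 and 5 and at 262 to 752 CPM in the other controls. Among p53 targets 7 of 16 were higher (median −0.12, and −0.02 without 2-DG replicate 3), with Mdm2 at −1.29 (SE 0.50) and Ei24 at 0.32 (SE 0.19).

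**Figure D5:**
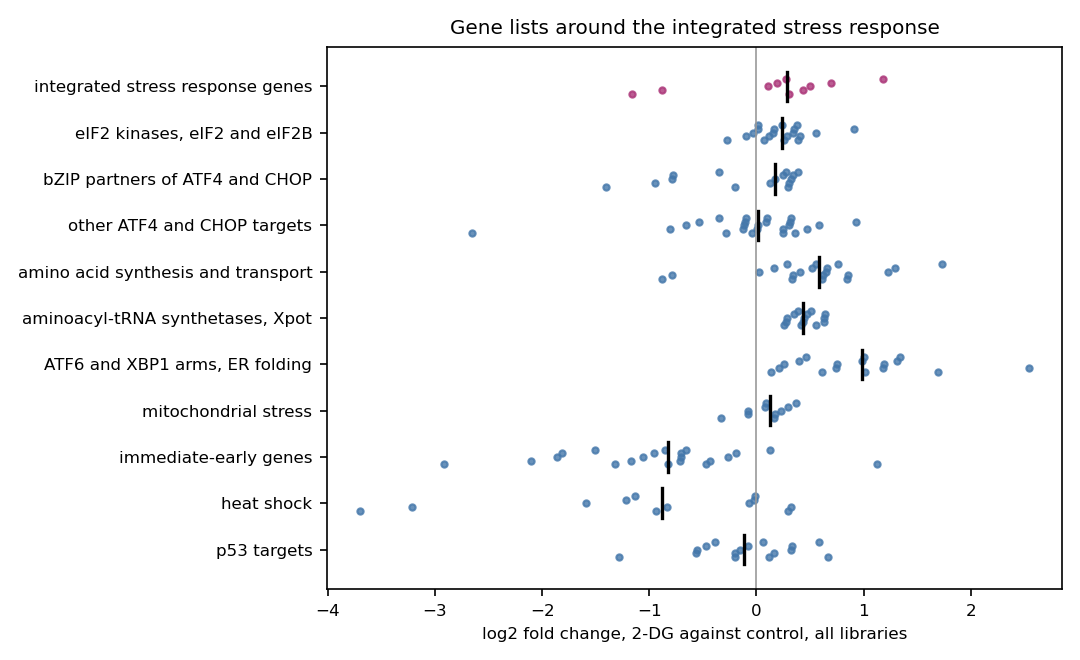
Log2 fold change of 2-DG against control over all 9 libraries (x axis) for each gene of the 10 integrated stress response genes and of 10 lists around them (y axis), with a bar at each median. The genes of the ATF6 and XBP1 arms have a median of 0.98 and lie above 0 throughout, whereas the 10 integrated stress response genes spread from −1.16 to 1.18.

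Cell type markers were set beside the 10 genes. Müller glia markers summed to 1372 to 5893 CPM in control and 548 to 2378 CPM in 2-DG libraries, with 3 of 5 lower at an unadjusted p under 0.05, against 4.83% of all genes (1 of 5 without 2-DG replicate 4), and Aqp4 at a log2 fold change of 0.19. Bipolar cell markers summed to 153 to 1774 CPM in control and 294 to 2830.0 CPM in 2-DG libraries. They were lowest in control replicate 5 (153 CPM) and 2-DG replicate 4 (294 CPM), among the libraries in which the 10 genes were highest. Control replicate 4, also among those libraries, had 895 CPM. Control replicate 2, with the lowest control value for 8 of the 10 genes, had 418 CPM. Cone markers summed to between 37.9 and 511 CPM in control and 40.6 and 634 CPM in 2-DG, ganglion cell markers to between 292 and 1409 and between 208 and 704 CPM, and microglia markers to between 9.74 and 38.4 and between 7.37 and 47.5 CPM. The part of cell composition in the levels of the 10 genes was not tested.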

How the data were processed

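Total RNA (4 ng) from the explants was made into stranded libraries with 13 PCR cycles and sequenced as pairs of 101 bases, all in 1 batch per the labels. Groups and replicate numbers came from the sample titles; the treatment text names 2-DG for every sample. The authors deposited unscaled estimated counts per gene and transcript. Kallisto and GRCm38 are named in the submitters' processing notes, and versions and the strand setting are not given in the sources used here. The authors also deposited a signal table of CPM on a scaled library size for 12568 genes, used here only as an alternative, as well as their own comparison (fold changes, F statistics and p-values), which was not used.

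Estimated counts were rounded to whole numbers and tested with edgeR 4.0.16 in R 4.3.3 (filterByExpr, TMM, glmQLFit with legacy=TRUE and robust=FALSE, glmQLFTest) on all 9 libraries with group as the only term. P-values were adjusted by Benjamini-Hochberg over 21049 genes or 62900 transcripts at a threshold of 0.05, two-sided. The SE is the absolute log2 fold change over the square root of F, and log2 CPM used a prior count of 2. Alternatives were 4 changes of scaling or filter, DESeq2 1.42.0, limma 3.58.1 on the deposited CPM (pseudocount 0.5) and with voom quality weights, a robust fit, 2 surrogate variables (sva 3.50.0), a replicate block and each library left out. The code was checked on simulated counts. The titles call the libraries biological replicates, without naming animals.

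Floors and p-values cover counting error and the spread between these libraries only, since no molecular identifiers were counted. The genes, the 10 pathway lists and the 8 marker lists were chosen with earlier results of these data known. Named besides the 10 genes were the 2 genes of each list with the smallest p-value and the 5 protein-coding genes most like Atf4 and Ddit3 by Pearson's r, of which 1 is not reported here. Further list and marker genes named in the text were chosen after their values were seen. Coordinates are from GENCODE M21 (GRCm38) and promoter sequences from RefSeq (GRCm38.p6).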

Additional observations from a re-analysis of the deposited data

Results flagged for a closer look

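In 6 of the 10 genes 2-DG replicate 4 stood far from the other 2-DG libraries, with a gap to the next library, as a share of the range of the 4, above Dixon's critical value at the 95% level. These were Trib3 (238.8 CPM, share 0.968), Gdf15 (379.3 CPM, share 0.961), Atf5 (200.8 CPM, share 0.913), Ppp1r15a (731.7 CPM, share 0.871), Chac1 (47.73 CPM, share 0.869) and Atf3 (204.2 CPM, share 0.84). In each it was the highest 2-DG library. The test was made in 20 groups, control and 2-DG for each gene, of which 6 passed it. For normally distributed values chance gives about 1 in 20. Linear CPM was used, on which a high value stands out more than on the log2 scale, and log2 CPM was not tested. The 6 results come from a single library and are not independent. No control group passed it.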

How the results depend on the processing

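Over the whole table edgeR called 0 genes, DESeq2 257, limma on the deposited CPM 2, and limma-voom with quality weights 1222. Leaving out 1 library gave between 0 and 16 calls, 16 without control replicate 2. Of the 10 genes 0 were called except with limma-voom (2, Atf3 and Ppp1r15a). At an unadjusted p under 0.05 there were 0 of the 10 (7.25% of all genes). Limma-voom gave 3 (these and Nupr1, 26.0% of all genes), as did 2 surrogate variables (Atf5, Trib3 and Nupr1, 11.9%). With no filter on low counts there were 2 (Atf3 and Nupr1, 7.08%). DESeq2 (7.14%), library size only (7.93%) and upper-quartile scaling (7.6%) gave 1 each (Atf3). With 1 library left out there were between 0 and 2, against 4.63% to 12.9% of all genes. For Atf4 the fold change turned below 0 on the deposited CPM (−0.038), with library size only (−0.0014), with limma-voom (−0.11) and without control replicate 2 (−0.04). Limma-voom also turned Atf5 (−0.18), Trib3 (−0.24), Chac1 (−0.28) and Gdf15 (−0.99). With 1 library left out, log2 fold changes ranged from −0.21 to 0.34 for Atf4, −0.60 to 0.95 for Atf5, −0.96 to 1.36 for Trib3, −0.48 to 0.77 for Chac1 and −1.49 to 1.77 for Gdf15, with the lowest value in each case without 2-DG replicate 4, and from −1.58 to −0.71 for Atf3 and −1.81 to −0.49 for Ppp1r15a, with the smallest drop without control replicate 5. Atf3, Ddit3, Sesn2, Ppp1r15a and Nupr1 kept their direction under all 19 alternatives. Without 2-DG replicate 4 the transcripts Atf4-201 (−0.32), Atf5-201 (−0.76), Trib3-201 (−1.10), Chac1-201 (−0.61), Sesn2-201 (−0.051), Ppp1r15a-203 (−2.03), Nupr1-205 (−0.42), Gdf15-201 (−1.21) and Gdf15-202 (−1.68) turned below 0. Causes were not tested.

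Whether the replicate numbers pair the libraries could not be told from the data. Same-numbered deviations from the group means correlated at 0.45, −0.15, 0.10 and 0.21. Replicates 1 and 4 were closest to their own number, and replicates 2 and 3 were not. With a replicate block, for which control replicate 5 was dropped, 4 of the 10 had an unadjusted p under 0.05 (Atf5 0.74, Trib3 1.41, Chac1 1.07 and Nupr1 0.95 on the log2 scale), against 6.38% of all genes, and 0 passed after adjustment. Atf3 was then at −0.60 and the heat shock median at −0.45. Counts of 60 or more per library leave the spread between libraries (biological coefficient of variation 51.5% over all genes) as the larger limit.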
